A study of Mus musculus with 16 samples.

Results

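The 7 genes described here, Alox15, Alox12, Alox5, Alox5ap, Lta4h, Ltc4s and Ltb4r1, belong to the lipoxygenase and leukotriene pathway, and they were taken by symbol from the 57010 genes counted in mouse granulosa cells (mGCs), the support cells around the oocyte within the ovarian follicle. They were selected on measured values, the lower Alox15 and higher Ltb4r1 counts in mice with endometriosis than in control mice, so the values of that comparison are given for them as a description without a test. The RNA came from female ICR mice that were 6 weeks old at the start. Mice of the EM group had endometrium from donor mice sutured to the serosa of the bowel and the mesentery, and mice of the Con group had sham surgery without an implant. Recipients of implants were given 17β-estradiol and then a washout before ovulation was induced, and the methods do not say whether sham mice were given estradiol, so implant and hormone cannot be told apart if they were not. RNA from freshly isolated mGCs of 5 Con and 5 EM libraries was sequenced, and the cells of both groups were taken after ovulation induction. For this step the methods name pregnant mare serum gonadotropin or human chorionic gonadotropin. In a second experiment mGCs of EM model mice were cultured in DMEM/F12 medium with 5% fetal bovine serum. They had 24 h with 100 nM 14,15-EET, an epoxide of arachidonic acid, or with phosphate-buffered saline (PBS), with 3 libraries each. A figure legend of the study puts a further 24 h of culture before the treatment. The methods describe the cultured libraries as pairs, from cells of EM mice split between the treatments, but neither they nor the labels say which mice gave each library or that the replicate numbers mark the pairs.

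Lipoxygenases add oxygen to arachidonic acid and related fatty acids. The 5-lipoxygenase encoded by Alox5 works with its activating protein, encoded by Alox5ap, to make leukotriene A4, which the hydrolase encoded by Lta4h turns into leukotriene B4 and the synthase encoded by Ltc4s turns into the cysteinyl leukotriene C4. Leukotriene B4 is a strong attractant of neutrophils and acts through the receptor encoded by Ltb4r1, while the lipoxygenases encoded by Alox15 and Alox12 make 12- and 15-hydroxy acids and precursors of lipid mediators that help inflammation resolve. In the mouse, leukotriene synthesis is best known in neutrophils, macrophages, mast cells and eosinophils, and Alox15 in peritoneal macrophages and eosinophils.

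Counts per library summed to between 14229123 and 15999234 reads in the fresh cells and between 21384686 and 29482826 reads in culture. The fresh library EM-mGC-3 stood apart, with 21.8% of its reads on mitochondrial genes against 6.76% to 11.1% in the other 9. Levels are given as counts scaled to library size (CPM, reads of a gene per 1000000 counted reads) after edgeR's TMM scaling within each experiment, and a count of 3 reads, the limit that a count of 0 allows, was worth 0.179 to 0.249 CPM in fresh and 0.102 to 0.142 CPM in cultured libraries. All 11 granulosa markers examined, among them Foxl2, Fshr and Amh, had reads in every group, with a summed level of 15620 to 21112 CPM in Con, 8841 to 28278 CPM in EM, 7233 to 7910 CPM in PBS and 6548 to 7034 CPM in EET libraries.

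The promoters of Ltb4r1 and Ltc4s are shown because these were the 2 members whose EM libraries all lay above all Con libraries. Each run is the 250 bases before the RefSeq start of the gene in GRCm38.p6, at chr14:55765712-55765961 on the plus strand for Ltb4r1 and chr11:50238533-50238782 on the minus strand for Ltc4s. Capitals mark matches, on either strand, to the core letters GAGGAAG of PU.1, a factor of the blood cell lineages, and to the letters TGTGGT of the RUNX factors.
Ltb4r1: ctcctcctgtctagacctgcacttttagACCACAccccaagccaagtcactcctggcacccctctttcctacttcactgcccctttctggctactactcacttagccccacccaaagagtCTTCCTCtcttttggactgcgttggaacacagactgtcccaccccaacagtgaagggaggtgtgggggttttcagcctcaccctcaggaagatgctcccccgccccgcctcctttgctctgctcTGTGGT
Ltc4s: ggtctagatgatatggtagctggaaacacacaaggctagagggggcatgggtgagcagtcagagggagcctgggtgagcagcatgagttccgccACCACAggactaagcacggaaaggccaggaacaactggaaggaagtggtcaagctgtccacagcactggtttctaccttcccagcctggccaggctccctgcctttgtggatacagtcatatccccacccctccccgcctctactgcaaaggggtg
The Ltb4r1 promoter held 1 match to GAGGAAG, which occurs in 10.4% of 27025 mouse promoters of the same length, and 2 to TGTGGT, which occurs in 14.2%. The Ltc4s promoter held 1 match to TGTGGT. In neither window did the letters AAGGTCA of SF-1, a factor of steroid-making cells, or the C/EBP letters TTNCNNAA occur, which are found in 4.05% and 36.9% of promoters, and no 2 marked matches overlapped. Promoters of Alox12, Alox5 and Lta4h were searched in the same way and held 2 C/EBP matches, which overlap, in Alox12 and no other match. The matches are letters in these windows and no binding was measured.

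In fresh cells the mean level of Alox15 was lower in the EM group, those of Ltb4r1, Ltc4s, Alox5ap and Alox5 were higher, and those of Lta4h and Alox12 were close in both groups. In bulk samples fewer cells of a type and less RNA per cell cannot be told apart. The groups overlapped for 4 of the 7 members, Alox5ap, Alox5, Alox12 and Lta4h, and did not for 3, with Ltb4r1 and Ltc4s higher and Alox15 lower in every EM library. Over all 17229 genes tested, 0.917% were higher in EM without overlap and 0.778% were lower without overlap. Because this contrast chose the genes, nothing is read from the members' counts against these shares. With edgeR's quasi-likelihood test, 0% of the genes tested (0 genes) were called at an adjusted p under 0.05, although 1626 had an unadjusted p under 0.05 and DESeq2 called 113. Without Con-mGC-3, edgeR called 46 genes.

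**Figure D1:**
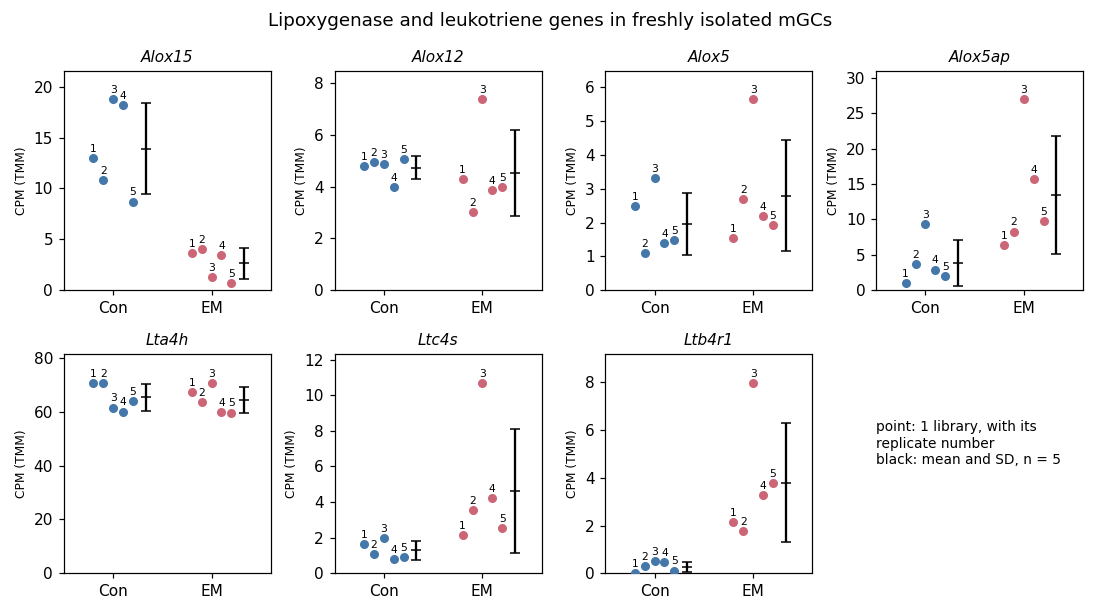
TMM-scaled CPM of the 7 members in freshly isolated mGCs, with each point 1 library labelled by its replicate number, and the mean and SD of 5 libraries in black. The EM points of Alox15 all lie below its Con points, those of Ltb4r1 and Ltc4s all lie above, and EM library 3 is the highest EM point in 6 of the 7 panels.

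Alox15 encodes the mouse 12/15-lipoxygenase and lies on chromosome 11 at chr11:70234978-70242857, on the minus strand (GRCm39, the build in the submitters' processing notes). Its Con libraries held 197, 176, 300, 275 and 146 reads, and its EM libraries held 53, 62, 16, 50 and 10. These counts equal 12.96, 10.8, 18.8, 18.2 and 8.71 CPM in Con against 3.69, 4.07, 1.33, 3.41 and 0.689 CPM in EM. The lowest Con library was thus above the highest EM library, with Con-mGC-3 and Con-mGC-4 highest and EM-mGC-3 and EM-mGC-5 lowest. Means were 13.9 ± 4.47 CPM in Con and 2.64 ± 1.52 CPM in EM (SD, n = 5 each), a log2 fold change of -2.38 (SE 0.41). Leaving out 1 library at a time kept it between -2.59 and -2.14, and it was -2.22 without EM-mGC-3.

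The same Alox15 reads, which the selection used, can be set against those of the other lipoxygenase members, and the shares are a restatement of that difference and not a further one. Of the summed level of Alox15, Alox12 and Alox5 in CPM per kb of exon, Alox15 made up 68.9% to 85.0% in Con libraries, with a median of 74.8%. In EM libraries its share was 14.5% to 54.3%, with a median of 48.4%. Alox15 was the highest of the 3 in 5 of 5 Con libraries, and in 3 of 5 EM libraries, with Alox12 highest in the other 2, EM-mGC-3 and EM-mGC-5.

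Alox12, the platelet-type 12-lipoxygenase gene, lies at chr11:70132283-70146179 on the minus strand, close to Alox15. It had 4.80, 4.96, 4.88, 3.98 and 5.07 CPM in Con and 4.32, 3.02, 7.38, 3.89 and 4.0 CPM in EM libraries. The EM values spread on both sides of the Con values, with EM-mGC-3 above and EM-mGC-2 and EM-mGC-4 below every Con library. Its log2 fold change was -0.07 (SE 0.24), against -0.32 without EM-mGC-3 and 0.04 without EM-mGC-2. How reads shared between similar lipoxygenase genes were counted is not given in the sources used here.

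Alox5, the 5-lipoxygenase gene at chr6:116387038-116438139 on the minus strand, had few reads, from 18 to 53 in Con and from 22 to 68 in EM libraries. Its levels were 2.50, 1.10, 3.31, 1.39 and 1.49 CPM in Con and 1.53, 2.69, 5.64, 2.18 and 1.93 CPM in EM. The groups overlapped, and EM-mGC-3 alone lay above all Con libraries. The log2 fold change of 0.50 (SE 0.41) rested on that library, since it was 0.09 without it.

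Alox5ap encodes the protein that presents arachidonic acid to 5-lipoxygenase, and lies at chr5:149201577-149224963 on the plus strand. Its levels were 1.05, 3.74, 9.32, 2.92 and 2.03 CPM in Con, and 6.34, 8.28, 27.0, 15.7 and 9.79 CPM in EM libraries. Every EM library lay above 4 of the Con libraries, and the overlap came from Con-mGC-3 alone. Means were 3.81 ± 3.24 CPM in Con and 13.4 ± 8.34 CPM in EM (SD, n = 5 each). The log2 fold change was 1.81 (SE 0.54). It was 2.45 without Con-mGC-3 and 1.39 without EM-mGC-3. An antisense lncRNA, Gm19719, overlaps this gene on the opposite strand, with at most 4 reads in Con and 6 in EM libraries.

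Lta4h, which encodes the leukotriene A4 hydrolase, at chr10:93289273-93320737 on the plus strand, had the most reads of the 7 genes and the narrowest spread relative to its mean. Its Con libraries had 70.7, 70.5, 61.5, 60.1 and 64.1 CPM, and its EM libraries had 67.3, 63.7, 70.8, 59.8 and 59.7 CPM. The ranges nearly coincided. The log2 fold change was -0.03 (SE 0.09), and stayed between -0.06 and 0.01 when 1 library was left out.

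Ltc4s encodes leukotriene C4 synthase and lies at chr11:50127288-50129443 on the minus strand. It had 25, 18, 32, 12 and 15 reads in Con and 31, 54, 129, 62 and 37 reads in EM libraries. In CPM these were 1.64, 1.10, 2.0, 0.795 and 0.895 in Con, and 2.16, 3.55, 10.7, 4.23 and 2.55 in EM. The groups touched closely, with the highest Con library (Con-mGC-3) just under the lowest EM library (EM-mGC-1), and EM-mGC-3 lay far above the rest. The log2 fold change was 1.84 (SE 0.46), and 1.27 without EM-mGC-3, a fold of 3.57 against 2.41. The lncRNA Gm26542 overlaps Ltc4s on the opposite strand and had 3 to 8 reads per fresh library.

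Ltb4r1, the high-affinity receptor gene for leukotriene B4, lies at chr14:56003419-56005951 on the plus strand. Con libraries held 0, 5, 8, 7 and 2 reads, and EM libraries held 31, 27, 96, 48 and 55. These equal 0, 0.306, 0.50, 0.464 and 0.119 CPM in Con against 2.16, 1.77, 7.97, 3.28 and 3.79 CPM in EM. Every EM library was above every Con library, and the gene passed the filter on low counts only through the EM group. Means were 0.278 ± 0.216 CPM and 3.79 ± 2.47 CPM (SD, n = 5 each), and the log2 fold change was 3.73 (SE 0.62). It was 3.27 without EM-mGC-3, or 9.65-fold against 13.2-fold with all libraries.

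**Figure D2:**
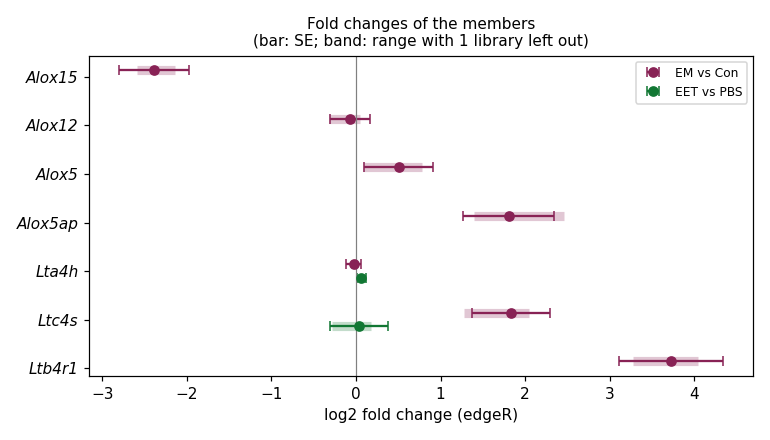
Log2 fold changes from edgeR for EM against Con (7 members) and EET against PBS (the 2 members that passed the filter), with bars for the SE and bands for the range when 1 library was left out. Alox15 lies at -2.38 and Ltb4r1 at 3.73 for EM against Con, while both EET values lie near 0.

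High values gathered in a few mice. EM-mGC-3 was the highest EM library for 6 of the 7 members, Alox15 being the exception, and Con-mGC-3 was the highest Con library for 5 of 7, all but Alox12 and Lta4h. Both libraries also had the highest summed level of 11 macrophage markers in their group, 806 CPM in EM-mGC-3 and 482 CPM in Con-mGC-3, of which Lyz2 alone reached 497 CPM in EM and 206 CPM in Con. EM-mGC-3 is the library with the large mitochondrial share, and it was also the highest EM library for the eosinophil, platelet, lymphocyte, endothelial and oocyte marker sums. Its TMM factor was 0.841, against 0.981 to 1.02 in the other EM libraries, which raises its CPM. Its raw counts of Alox12, Alox5, Alox5ap, Ltc4s and Ltb4r1 were also the highest of the EM group. For Lta4h it had the fewest EM reads, 853 against 866 to 969, so that rank came from the scaling. Its endothelial and lymphocyte sums were close to those of the next EM library, 146.0 against 142.4 CPM and 9.71 against 9.07 CPM. Its neutrophil sum of 87.0 CPM lay low in the EM range of 67.4 to 238 CPM.

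Most neutrophil markers, and most macrophage markers to a lesser extent, were higher in the group in which Ltb4r1, Ltc4s and Alox5ap were higher. The 11 neutrophil markers, among them S100a8, S100a9 and Retnlg, summed to 22.0 to 77.5 CPM in Con and 67.4 to 238 CPM in EM libraries, and all 11 had reads in both groups. Ltf, the 1 tested marker that was lower, had 10.6 to 28.3 CPM in Con and 4.98 to 18.3 CPM in EM. Its log2 fold change was -0.70. Of the 9 neutrophil markers tested, 8 were higher in EM, with a median log2 fold change of 2.45 against -0.01 over all genes tested. None was called by edgeR (0) and 5 were by DESeq2, and 8 had an unadjusted p under 0.05 by edgeR. S100a8, Retnlg, Cxcr2, Mmp8 and Ngp passed the filter on low counts only through the EM group, which favours higher levels there. Of the 5 DESeq2 calls, S100a8, Cxcr2 and Ngp carry that limit, and S100a9 and Mmp9 do not. The macrophage markers summed to 277 to 482 CPM in Con and 313 to 806 CPM in EM, with 9 of 11 higher and a median log2 fold change of 0.29. Lyz2 carried much of that sum, at 84.5 to 206 CPM in Con and 172 to 497 CPM in EM, with a log2 fold change of 1.14. Apart from Lyz2, log2 fold changes ran from -0.27 (Mertk) and -0.21 (Cx3cr1), the 2 that were lower, to 0.86 (Fcgr1). Those of Adgre1 and Csf1r were 0.03 and 0.08. None of these 11 was called by edgeR (0), with 2 at an unadjusted p under 0.05, and DESeq2 called 1, Lyz2. The part of these cells in the higher Ltb4r1, Ltc4s and Alox5ap values was not tested.

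Peritoneal macrophages and eosinophils are the best known mouse sources of Alox15. Peritoneal macrophage markers (Gata6, Icam2, Timd4, F5, Prg4 and Cd5l) summed to 130 to 175 CPM in Con and 114 to 184 CPM in EM, and 3 of the 6 were higher and 3 lower in EM, at a median of -0.10 in log2 fold change. Most of that sum was Gata6, which granulosa cells also express, at 103 to 125 CPM in Con and 82.8 to 154 CPM in EM. Without Gata6, a split made after its values were seen, the other 5 summed to 24.3 to 52.0 CPM in Con and 17.9 to 31.1 CPM in EM, and Prg4 had 10.98 to 31.5 CPM and 5.56 to 17.9 CPM. Of the 6, none was called by edgeR or DESeq2 (0 each), and Prg4 had an unadjusted p under 0.05, with a log2 fold change of -1.15. Eosinophil markers summed to 2.25 to 4.88 CPM in Con and 1.84 to 3.40 CPM in EM, where Prg2 was at 0. In Con libraries Prg2 had 0 to 3 reads. The 1 of 8 that passed the filter, Ccr3, had 1.65 to 3.44 CPM in Con and 0.591 to 1.86 CPM in EM. Its log2 fold change was -0.83, and it was not called by edgeR or DESeq2 (0 each), although its unadjusted p was under 0.05 by edgeR. It passed only through the Con group, since its EM libraries had as few as 9 reads. Ear2, below the filter, went the other way, with 1 to 7 reads in Con and 6 to 20 reads in EM. The part of these cells in the lower Alox15 values was not tested.

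**Figure D3:**
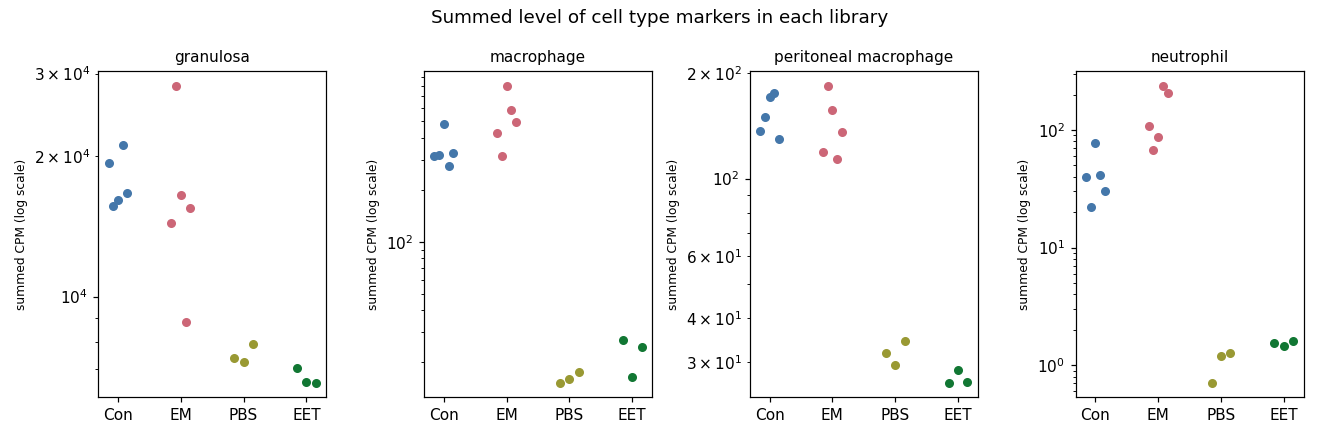
Summed TMM-scaled CPM of 4 marker lists in each library, on log axes, with 1 point per library. Neutrophil sums are 67.4 to 238 CPM in EM against 22.0 to 77.5 CPM in Con, peritoneal macrophage sums, mostly Gata6, overlap, and the macrophage and neutrophil sums of cultured libraries lie far below those of fresh ones.

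The other lists are given by their sums. Platelet markers, which bear on Alox12, summed to 8.61 to 13.99 CPM in Con and 13.2 to 25.4 CPM in EM, with Gp1bb at 0 in both. Mast cell markers summed to 26.7 to 52.9 CPM and 26.7 to 67.7 CPM, with Ms4a2 and Fcer1a at 0 in EM and at most 2 and 1 reads in Con libraries. Hdc, the 1 mast cell marker tested, carried most of that sum and had a log2 fold change of 0.31. The mast cell proteases were below the filter. Cpa3 had 0.625 to 1.26 CPM in Con and 0.0682 to 0.207 CPM in EM, without overlap. Mcpt4 had 0.298 to 1.84 CPM and 0 to 0.207 CPM, also without overlap. Tpsb2 (0.179 to 1.19 and 0.136 to 0.551 CPM) and Cma1 (0.298 to 1.66 and 0 to 0.415 CPM) overlapped. Tpsab1 overlapped and reached higher in EM, at 0 to 0.125 CPM in Con and 0 to 0.482 CPM in EM. Lymphocyte markers summed to 7.66 to 14.8 CPM in Con and 5.32 to 9.71 CPM in EM, and the 5 tested were all lower, at a median of -0.41 in log2 fold change. Theca markers summed to 277 to 381 CPM in Con and 255 to 391 CPM in EM, mostly Cyp17a1, with none called by edgeR (0), 2 at an unadjusted p under 0.05 and 1 called by DESeq2, Gli1, at 5.03 to 7.69 CPM against 1.83 to 3.34 CPM. Oocyte markers summed to 311 to 701 CPM and 93.2 to 728 CPM, and endothelial markers to 147 to 170 CPM and 81.3 to 146 CPM, without overlap. All 6 endothelial markers were lower in EM, with none called by edgeR or DESeq2 (0 each) and 2 at an unadjusted p under 0.05. Their part in the members' values was not tested.

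Per kb of exon, the order of the mean levels in Con was Lta4h (10.7 CPM per kb), Alox15 (5.66), Alox5ap (2.68), Ltc4s (1.27), Alox12 (1.16), Alox5 (0.477) and Ltb4r1 (0.199). Neighbours in this order overlapped between libraries, apart from Lta4h and Alox15, and Alox12 and Alox5. The EM order was Lta4h (10.5 CPM per kb), Alox5ap (9.45), Ltc4s (4.57), Ltb4r1 (2.72), Alox12 (1.11), Alox15 (1.08) and Alox5 (0.681), with every neighbouring pair overlapping. Alox15 thus stood next to the top in Con and next to the bottom in EM, and Ltb4r1 was last in Con and above 3 of the others in EM.

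In the cultured cells Lta4h was the one member with a high level. Ltc4s was low but above the limit of detection in every library, and the remaining members were at or near that limit. Lta4h had 57.6, 56.9 and 55.7 CPM in PBS and 56.5, 60.9 and 60.4 CPM in EET libraries. Ltc4s had 11, 13 and 18 reads in PBS and 23, 12 and 11 in EET, which is 0.522, 0.50 and 0.647 CPM against 0.782, 0.457 and 0.461 CPM. For both genes the groups overlapped, with EET-1 the lowest EET library for Lta4h and the highest for Ltc4s.

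Neither gene passed the test. The log2 fold change of EET against PBS was 0.06 (SE 0.05) for Lta4h, with an adjusted p of 0.667 by edgeR, and 0.04 (SE 0.34) for Ltc4s, with an adjusted p of 0.978 by edgeR. With the replicate number as a block they were 0.06 and 0.0053, and neither was called. Of the 15050 genes tested, 1.22% were called (184, and 341 with the block), 75 higher and 109 lower in EET, and 0 of the 2 members tested were among them, by edgeR or by DESeq2, which gave Ltc4s no adjusted p, with 0 at an unadjusted p under 0.05. All 7 members overlapped between EET and PBS, against 8.48% of genes that were higher and 9.17% that were lower without overlap.

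The 5 members below the filter had at most 9 reads in any cultured library. Alox15 had 2, 2 and 0 reads in PBS and 0, 2 and 2 in EET, and Alox5 had 0, 2 and 1 in PBS and 0, 2 and 6 in EET. Alox5ap had 0, 3 and 3 reads in PBS and 3, 4 and 2 in EET, and Alox12 had 0, 7 and 8 in PBS and 9, 7 and 6 in EET. Ltb4r1 had 3, 4 and 8 reads in PBS and 8, 5 and 7 in EET, so that no cultured library was without it. A difference between EET and PBS was not detectable for these genes at this depth. With no filter all 7 members could be fitted, and 0 were called by edgeR, with 0 at an unadjusted p under 0.05.

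**Figure D4:**
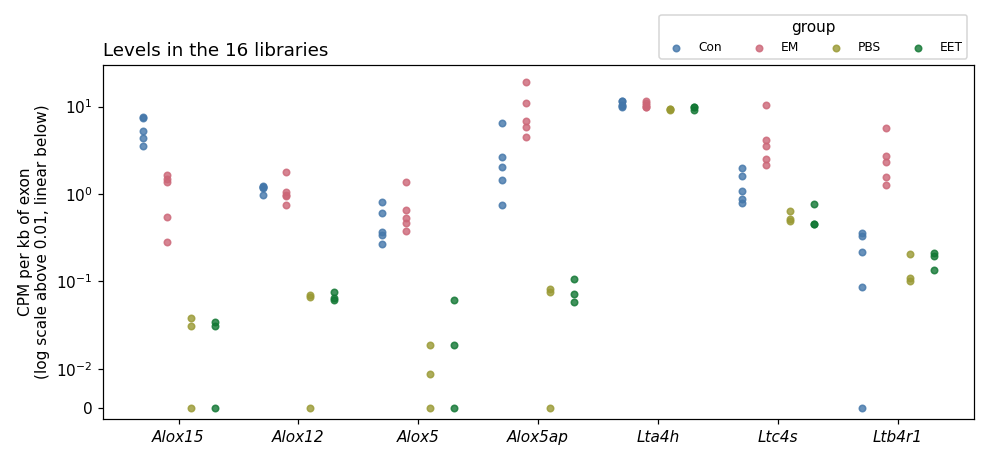
Levels of the 7 members in CPM per kb of exon in all 16 libraries, on an axis that is logarithmic above 0.01 and linear below, with each point 1 library and CPM scaled within each experiment. Lta4h stays near 10 in all groups, while Alox15, Alox12, Alox5 and Alox5ap lie below 0.11 in every cultured library.

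Cells of the culture experiment were likewise taken from EM model mice, and 6 of the 7 members had lower levels in culture than in the fresh EM group. Mean levels were 2.64 CPM in EM and 0.0573 CPM in PBS for Alox15, 13.4 and 0.0744 CPM for Alox5ap, and 3.79 and 0.195 CPM for Ltb4r1, while Lta4h had 64.2 CPM in EM and 56.8 CPM in PBS. The order of EM and PBS for Lta4h turned with the scaling, since TMM over all libraries together gave 59.3 CPM in EM and 65.2 CPM in PBS. Over the same groups the neutrophil marker sum was 67.4 to 238 CPM in EM, 0.712 to 1.26 CPM in PBS and 1.45 to 1.59 CPM in EET, with S100a8, S100a9, Ly6g and Retnlg at 0 in all 6 cultured libraries. Most of the cultured sums was Camp, with 11 to 31 reads in PBS and 34 to 44 reads in EET libraries. No other neutrophil marker had more than 3 reads in a cultured library. Camp was the 1 neutrophil marker tested in culture and was not called by edgeR (0). Macrophage markers summed to 313 to 806 CPM in EM, 15.2 to 17.5 CPM in PBS and 16.4 to 27.0 CPM in EET. The fresh and cultured libraries are separate experiments, so culture, cell makeup and experiment cannot be told apart, and no test was made.

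The other marker sums were lower in cultured than in fresh EM libraries, apart from the eosinophil sum. Peritoneal macrophage markers summed to 29.5 to 34.4 CPM in PBS and 26.3 to 28.6 CPM in EET, nearly all of it Gata6, and the other 5 summed to 0.380 to 1.0 CPM and 0.343 to 0.879 CPM, with Timd4 at 0. Eosinophil markers summed to 2.30 to 2.94 CPM and 2.17 to 3.70 CPM, almost all of it Prg2, with Epx, Il5ra, Ear1 and Ear6 at 0 in both. Mast cell sums were 1.80 to 2.35 CPM and 1.43 to 1.90 CPM, with Tpsb2, Tpsab1, Cma1 and Fcer1a at 0, and platelet sums were 1.77 to 2.51 CPM and 1.33 to 2.40 CPM, with Gp9, Gp1bb, Treml1 and Gp6 at 0. Lymphocyte sums were 0.154 to 0.474 CPM and 0.343 to 0.646 CPM, theca sums 51.0 to 58.5 CPM and 51.0 to 52.8 CPM, endothelial sums 3.53 to 4.39 CPM and 4.11 to 4.27 CPM, and oocyte sums 1.04 to 1.19 CPM and 0.586 to 1.02 CPM. Their part in the low members' levels was not tested.

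Beyond the 7 members, 39 further genes of the pathway were listed, from phospholipases that release arachidonic acid to receptors. For EM against Con 27 were tested, 14 higher and 13 lower, with a median log2 fold change of 0.06 against -0.01 over all genes tested. By edgeR 0 were called in either direction, while 3 had an unadjusted p under 0.05, against 9.44% of all genes tested, and DESeq2 called 1. The highest was Fpr2, a formyl peptide receptor that also binds lipoxin A4, with 0.723, 0.552, 2.06, 0.265 and 0.239 CPM in Con and 2.58, 1.64, 3.73, 5.73 and 6.96 CPM in EM. Only Con-mGC-3 among the Con libraries reached into the EM range. The gene passed the filter on low counts only through the EM group, so its tests carry that limit. The log2 fold change of Fpr2 was 2.41 (SE 0.58), with an adjusted p of 0.348 by edgeR and 0.0137 by DESeq2, and without Con-mGC-3 it was 3.20 with an adjusted p of 0.0390 by edgeR. Fpr2 is a gene of neutrophils and macrophages, whose marker values are given above.

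The lowest was Aloxe3, the epidermal hydroperoxide isomerase, with 1.58 ± 0.515 CPM in Con and 0.774 ± 0.358 CPM in EM (SD, n = 5 each). Its log2 fold change was -1.01 (SE 0.38), with an adjusted p of 0.489 by edgeR. Aloxe3 passed the filter only through the Con group, since EM-mGC-3 had 3 reads. The third gene with an unadjusted p under 0.05, named after its values were seen, was Cyp4f18, which inactivates leukotriene B4 in neutrophils. It had 2.69 to 10.3 CPM in Con and 5.32 to 68.4 CPM in EM, with overlap, and a log2 fold change of 1.93 (SE 0.61, adjusted p of 0.437 by edgeR). Without EM-mGC-4 it was 1.07, a fold of 2.10 against 3.80. By role, 3 of 9 receptors were tested and all 3 were higher in EM. Of these, Fpr2 and Cysltr1 passed the filter on low counts only through the EM group, which favours higher levels there. Among receptors below the filter, means were lower in EM for Cysltr2, Gpr17, Gpr18 and Oxgr1, and higher for Ltb4r2 and Gpr31b. Both glutathione-conjugating genes, Mgst2 and Mgst3, were higher, with log2 fold changes of 0.50 (SE 0.29) and 0.10 (SE 0.14). The groups overlapped for both, and neither was called by edgeR or DESeq2 (0 each). Of 9 tested genes that break down leukotriene B4 and hydroxy acids, 3 were higher and 6 lower. None of these 9 was called by edgeR or DESeq2 (0 each).

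For EET against PBS 20 of the 39 were tested, 8 higher and 12 lower, with a median log2 fold change of -0.05 against 0.0011 over all genes tested. None was called by edgeR or DESeq2 (0 each), although DESeq2 gave Aloxe3, Pla2g4c and Cyp4f15 no adjusted p. By edgeR 2 had an unadjusted p under 0.05, against 12.4% of all genes tested. The highest was Hpgd, which oxidizes prostaglandins and hydroxy acids, at 18.1, 16.9 and 14.5 CPM in PBS and 16.7, 20.0 and 20.4 CPM in EET. Its groups overlapped, and the log2 fold change was 0.21 (SE 0.10), with an adjusted p of 0.434 by edgeR. The lowest was Cyp4f15, a fatty acid hydroxylase, at 0.522, 0.885 and 0.719 CPM in PBS and 0.340, 0.419 and 0.293 CPM in EET, without overlap. Its log2 fold change was -1.02 (SE 0.35), with an adjusted p of 0.242 by edgeR. Cyp4f15 passed the filter only through the PBS group, with 7 reads in EET-3. Mgst2, a microsomal enzyme that can also make leukotriene C4, was the other gene with an unadjusted p under 0.05 and was named after its values were seen. It had 22.1, 24.3 and 24.7 CPM in PBS and 26.6, 27.0 and 25.7 CPM in EET, with a log2 fold change of 0.15 (SE 0.07) and an adjusted p of 0.387 by edgeR. None of the 9 receptors passed the filter in cultured cells (0 tested).

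**Figure D5:**
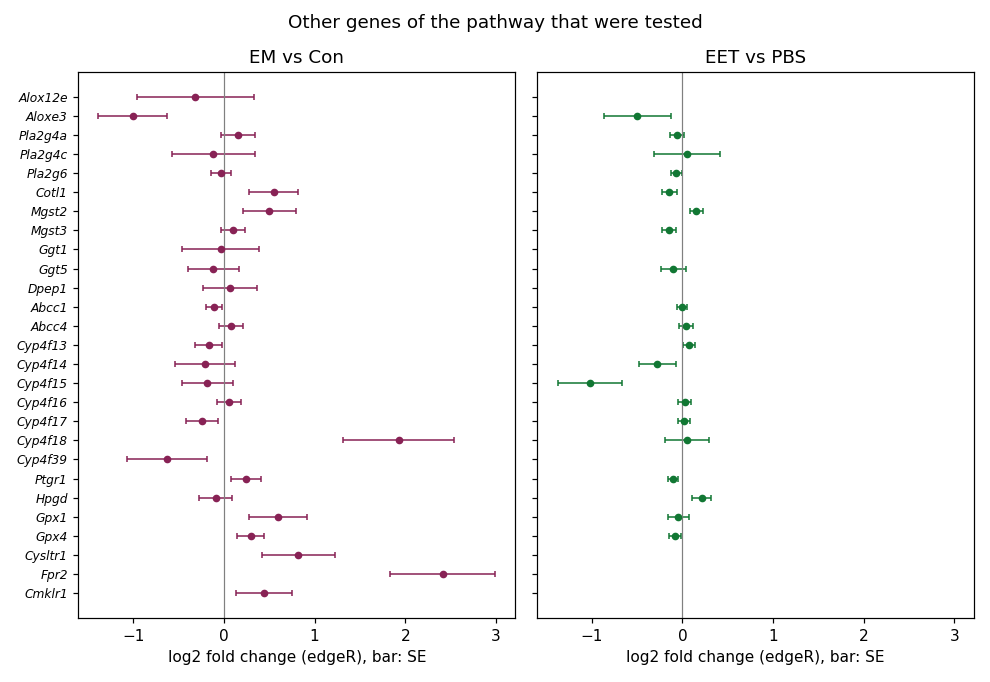
Log2 fold changes with SE, on the same axis scale, of the other pathway genes that passed the filter, 27 for EM against Con and 20 for EET against PBS. Fpr2 at 2.41 and Cyp4f18 at 1.93 lie farthest right for EM against Con, and Cyp4f15 at -1.02 farthest left for EET against PBS.

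The genes whose pattern over the 10 fresh libraries was most like each member's are given as a description, by Pearson's r of log2 CPM among genes tested, with no p, since all points share their libraries and group differences. Alox5ap was closest to the myeloid genes Il1a (r = 0.984), Clec4d (0.984) and Itgam (0.980), whose mean levels were 3.70, 2.08 and 6.03 CPM in Con and 13.6, 8.67 and 19.7 CPM in EM and were under 0.07 CPM in each cultured group. Ltb4r1 was closest to Tomm7 (r = 0.961), Emc4 (0.952) and the chemokine receptor gene Ccr1 (0.943), which had 2.81 ± 2.54 CPM in Con and 11.2 ± 3.93 CPM in EM (SD, n = 5 each). Ltc4s was closest to Itm2c (r = 0.980), Coa3 (0.969) and Rps27l (0.967), and Alox15 to Dnaaf3 (0.923), Wwc1 (0.898) and Col24a1 (0.877). The last 3 had log2 fold changes of -0.61, -0.75 and -0.72, all smaller in size than that of Alox15. Alox5 was closest to Sub1 (r = 0.972), Alg2 (0.956) and Arcn1 (0.939), Alox12 to Csrp1 (0.931), Prcd (0.924) and Grb10 (0.919), and Lta4h to Hsd17b10 (0.899), Ndufv1 (0.866) and Rrp12 (0.866).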

How the data were processed

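The authors deposited raw read counts per Ensembl gene for both experiments, made with featureCounts, and the submitters' processing notes name fastp, HISAT2, StringTie and GRCm39. Versions, strand handling and how multi-mapping reads were treated are not given in the sources used here, so counts of paralogs and overlapping genes are uncertain. No column was left unused (0 columns). Each experiment was fitted on its own in R 4.3.3 with edgeR 4.0.16 (filterByExpr, TMM, quasi-likelihood test), with Benjamini-Hochberg adjustment over all genes tested and calls at an adjusted p under 0.05. Reported SEs were derived from the log2 fold change and its test statistic. DESeq2 1.42.0, other scalings and filters, the replicate number as a block and leaving out each library were alternatives. The fits were tested on simulated counts.

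The members, the pathway and marker lists, and the motifs were chosen with earlier results of these data known. Besides the members, named genes are the highest and lowest pathway gene of each comparison and the 3 genes most correlated with each member (mean of at least 1 log2 CPM, prior count 0.5, no predicted symbol). Cyp4f18, Mgst2, Mgst3, Alox12e and single receptor and marker genes were named outside this rule, after their values were seen. CPM per kb uses the union of exons per gene in GENCODE vM21 (GRCm38). For Dpep2, which is listed under a pair of overlapping identifiers, the row with more reads was used. Promoters are from RefSeq, GRCm38.p6, and 5 of the 7 members matched. Coordinates of genes are those deposited and were not converted.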

Additional observations from a re-analysis of the deposited data

Results flagged for a closer look

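In 3 of the 14 sets of 5 fresh libraries, 1 library lay far from the others of its group by Dixon's ratio, a rule that chance meets in about 1 in 20 groups. Alox12 in Con-mGC-4 was the lowest Con value, 3.98 CPM, with the next at 4.80 CPM. Alox5 in EM-mGC-3 was the highest EM value, 5.64 CPM, with the next at 2.69 CPM. Ltc4s in EM-mGC-3 was the highest EM value, 10.7 CPM, with the next at 4.23 CPM.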

How the results depend on the processing

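The directions of Alox15, Ltb4r1, Ltc4s, Alox5ap and Alox5 for EM against Con stayed the same under every alternative run for them, with Alox15 from -2.59 to -2.14 and Ltb4r1 from 3.27 to 4.04 in log2 fold change. Ltb4r1 could not be fitted with at least 10 counts in every library. With 1 library left out, Alox12 ranged from -0.32 to 0.043 and turned without EM replicate 2, Lta4h ranged from -0.063 to 0.012 and turned to 0.012, 0.0037, 9.5e-05 and 0.00042 without Con replicates 1 and 2 and EM replicates 4 and 5, and Ltc4s for EET against PBS ranged from -0.29 to 0.17 and turned to -0.0014, -0.042 and -0.29 without PBS replicates 1 and 2 and EET replicate 1. The cause was not tested.

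The number of members called for EET against PBS was 0 under all alternatives. Alternatives for the pathway genes in EM against Con were added after seeing the data, and DESeq2 called 1 and edgeR without Con replicate 3 called 1 (0 to 1 over libraries left out), Fpr2 in both, against 0. Over all genes, calls for EM against Con were 0 and became 113 with DESeq2, 46 without Con replicate 3, 4 with no filter, 2 with the replicate block and 1 without EM replicate 1. For EET against PBS they were 184 and became 341 with DESeq2 and 662 with no filter, and 122, 61 and 48 without EET replicates 1, 2 and 3, and 350 and 436 without PBS replicates 1 and 2.

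Same-numbered EET and PBS libraries deviated together at correlations of 0.0499, 0.0801 and -0.0224. With 3 libraries in each group, these values do not settle whether equal numbers stand for the pairs named in the methods. With the replicate block 341 genes were called, against 184 without it. No member was among them (0), with Lta4h at 0.06 and Ltc4s at 0.0053. Con and EM libraries are of different mice, and their same-numbered correlations ran from -0.226 to 0.230. With that replicate block Alox15 was -2.52 and Ltb4r1 3.76. TMM over all libraries together moved Lta4h to 60.0, 59.3, 65.2 and 67.8 CPM in Con, EM, PBS and EET, Alox12 in EET to 0.314 CPM and Ltc4s in PBS to 0.640 CPM. Depth limits Alox5, Ltc4s and Ltb4r1 in fresh cells, and all members but Lta4h in culture, and intervals of counting error were not formed.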

Other observations

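Alox12e, a lipoxygenase gene related to Alox12 and Alox15 that makes 12-hydroxy acids in the epidermis, varied more between libraries of a group than between groups. It had 5.46, 0.736, 1.31, 1.46 and 0.835 CPM in Con and 1.18, 2.30, 0.332, 3.21 and 0.758 CPM in EM, with Con-mGC-1 and EM-mGC-4 highest. Its log2 fold change was -0.31 (SE 0.64) for EM against Con, with an adjusted p of 0.890 by edgeR. In culture it had 2 reads in PBS-3 and 0 in the other 5 libraries.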
